A study of Mus musculus with 6 samples.

Results

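Interferon-stimulated genes were followed in bulk RNA sequencing of chondrocytes, the cartilage-forming cells, from mice. The set was a list of 37 gene symbols, taken by exact match to the symbols of the count table. Of the 37, 35 had a row among the 23867 genes of the table, and Mx1 and Mx2 were not analysed here. All 35 passed the filter on low counts. They were read in 2 classes: 31 antiviral genes of the type I interferon response, and 4 genes of the Irf1 and guanylate-binding protein (GBP) group, namely Irf1, Gbp2, Gbp3 and Gbp7. The 6 libraries were 3 labelled MFN2Col2a1-/-, called the knockout and held in columns CRE1, CRE2 and CRE3, and 3 labelled MFN2wt, the wild type, held in columns WT1, WT2 and WT3. The labels give no treatment, age or strain, and no design of the alleles beyond the genes MFN2 and Col2a1. Col2a1 encodes the main collagen of cartilage, and its promoter is widely used to drive Cre recombinase in chondrocytes. Mfn2 encodes mitofusin 2, a membrane protein that fuses mitochondria and links them to the endoplasmic reticulum.

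Interferons are secreted proteins that cells release on meeting viral or other nucleic acids. Type I interferons bind a receptor made of Ifnar1 and Ifnar2, whose kinases activate transcription factors, among them STAT2, which works with IRF9 on the interferon-stimulated response element (ISRE) of target promoters. Interferon-gamma binds Ifngr1 and Ifngr2, and its signal acts through gamma-activated sites (GAS) and induces Irf1, which in turn induces GBP genes. Many target genes are also expressed at a basal level without infection, and macrophages are known for high basal expression of several of them.

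Promoter windows are shown first, because the genes of the set are known to be switched on through such elements and the windows can be set beside the values that follow. RefSeq windows of 300 bases, from 250 before to 50 after each annotated start, were matched by symbol for 28 of the 37 genes (build GRCm38.p6). The core ISRE pattern GAAANNGAAA was searched on both strands, and so was the GAS pattern TTCNNNGAA. An ISRE match was present for 14 of the 28 genes, in 14 of their 32 windows, where 3.44% of all 32851 windows hold one. Of those 14 genes, 8 had more than 1 match. The GAS pattern matched for 8 of the 28 genes, in 8 of their 32 windows, where 8.3% of all windows hold one. Both patterns were present for 5 genes and neither for 11, and in 2 windows matches of both patterns share letters. A match describes letters in the window only. The 8 windows below cover Ifit1, Ifit3 and Ifit3b of the Ifit family, which differed in response, and an oligoadenylate synthetase gene that fell. They also cover Isg15 and Ifitm3, which rose, and a gene from each side of the Irf1 and GBP group. Each is written 5′ to 3′ on the strand of its gene. Capitals mark ISRE matches on either strand, except in Irf1, where they mark the GAS match.
Ifit1 (chr19:34640639-34640938, + strand): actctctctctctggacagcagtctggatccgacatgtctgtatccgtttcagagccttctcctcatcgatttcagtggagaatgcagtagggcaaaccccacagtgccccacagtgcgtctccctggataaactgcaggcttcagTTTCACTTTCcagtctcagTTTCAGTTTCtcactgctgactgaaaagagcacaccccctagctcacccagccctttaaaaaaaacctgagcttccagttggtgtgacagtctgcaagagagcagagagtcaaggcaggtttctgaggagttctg
Ifit3 (chr19:34583279-34583578, + strand): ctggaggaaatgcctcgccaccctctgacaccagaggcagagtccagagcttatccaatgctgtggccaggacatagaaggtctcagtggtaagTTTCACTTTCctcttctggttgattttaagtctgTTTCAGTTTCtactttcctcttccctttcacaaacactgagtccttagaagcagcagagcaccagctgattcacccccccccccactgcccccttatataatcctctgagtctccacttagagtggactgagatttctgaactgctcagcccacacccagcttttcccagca
Ifit3b (chr19:34607707-34608006, + strand): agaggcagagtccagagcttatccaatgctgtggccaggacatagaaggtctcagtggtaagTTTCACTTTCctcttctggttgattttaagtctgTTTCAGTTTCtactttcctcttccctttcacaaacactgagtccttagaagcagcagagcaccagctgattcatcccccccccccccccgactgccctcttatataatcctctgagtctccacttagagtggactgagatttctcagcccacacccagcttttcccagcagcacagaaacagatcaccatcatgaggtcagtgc
Oas3 (chr5:120777610-120777909, − strand): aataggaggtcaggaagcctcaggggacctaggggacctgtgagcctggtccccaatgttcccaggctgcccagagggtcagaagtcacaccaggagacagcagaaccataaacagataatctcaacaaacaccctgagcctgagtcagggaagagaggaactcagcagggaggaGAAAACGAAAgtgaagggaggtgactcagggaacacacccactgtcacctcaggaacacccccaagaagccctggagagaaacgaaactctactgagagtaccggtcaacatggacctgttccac
Isg15 (chr4:156200769-156201068, − strand): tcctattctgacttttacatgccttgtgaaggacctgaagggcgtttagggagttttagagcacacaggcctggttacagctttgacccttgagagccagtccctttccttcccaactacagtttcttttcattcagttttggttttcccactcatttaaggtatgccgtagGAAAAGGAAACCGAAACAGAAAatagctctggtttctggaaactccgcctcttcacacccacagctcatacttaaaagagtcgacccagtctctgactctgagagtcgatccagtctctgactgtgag
Ifitm3 (chr7:141010695-141010994, − strand): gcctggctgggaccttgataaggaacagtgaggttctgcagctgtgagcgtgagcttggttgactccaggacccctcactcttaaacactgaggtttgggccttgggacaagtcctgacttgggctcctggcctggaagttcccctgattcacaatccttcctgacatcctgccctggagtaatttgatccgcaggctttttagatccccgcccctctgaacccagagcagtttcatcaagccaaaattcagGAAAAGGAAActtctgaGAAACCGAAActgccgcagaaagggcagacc
Gbp2 (chr3:142620413-142620712, + strand): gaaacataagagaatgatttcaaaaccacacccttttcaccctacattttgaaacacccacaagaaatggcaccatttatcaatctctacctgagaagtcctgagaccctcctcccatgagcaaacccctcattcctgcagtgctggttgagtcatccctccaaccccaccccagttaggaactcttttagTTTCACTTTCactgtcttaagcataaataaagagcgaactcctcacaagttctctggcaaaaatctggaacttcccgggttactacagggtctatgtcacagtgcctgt
Irf1 (chr11:53769764-53770063, + strand): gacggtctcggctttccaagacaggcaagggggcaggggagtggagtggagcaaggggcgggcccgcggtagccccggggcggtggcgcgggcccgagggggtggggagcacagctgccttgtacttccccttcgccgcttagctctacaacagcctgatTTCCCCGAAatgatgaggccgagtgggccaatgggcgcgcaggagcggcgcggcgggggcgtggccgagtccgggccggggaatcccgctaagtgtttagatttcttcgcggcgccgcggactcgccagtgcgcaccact

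Ifit1, Ifit3 and Ifit3b each carry the same pair of ISRE matches, GAAAGTGAAA and GAAACTGAAA when read on the reverse strand. The pair lies at −104 to −95 and −85 to −76 in Ifit1, and at −156 to −147 and −122 to −113 in Ifit3, counted from the annotated start. Ifit2, whose windows are not printed, has no ISRE match in them and a GAS match at −241 to −233. Isg15 and Ifitm3 share another pair, GAAAAGGAAA and GAAACCGAAA. In Isg15 this pair overlaps, together with a further match, between −78 and −57, while in Ifitm3 it lies after the start, at 3 to 12 and 20 to 29. The windows of Ifit3 and Ifit3b align over 274 columns with 94.5% identity.

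The targeted gene was lower in the knockout. Mfn2 stood at 64.0, 56.5 and 59.4 CPM in CRE1 to CRE3, against 108, 108 and 106 CPM in WT1 to WT3, with a log2 fold change of −0.84 (SE 0.046). Levels are read counts scaled by library size and TMM factors (CPM), values after ± are SDs over n = 3 libraries, and log2 fold changes are knockout over wild type with their standard error (SE). CRE libraries held 31481779 to 37814723 counts and WT libraries 39267487 to 40152687. Chondrocyte markers were present in every library but 12 of 13 were lower in the knockout, with a summed level of 2998 ± 69.1 CPM in CRE libraries and 8618 ± 108 CPM in WT libraries, and Col2a1 at 509 ± 29.0 CPM in CRE libraries and 3397 ± 71.3 CPM in WT libraries. Fibroblast markers summed to 28458 ± 465 CPM in CRE libraries and 22356 ± 104 CPM in WT libraries, with 3 of 8 higher and 4 lower. Endothelial markers summed to 13.3 ± 0.754 CPM in CRE libraries and 7.53 ± 0.861 CPM in WT libraries. Of the 5 endothelial markers tested, 2 were higher, 1 was lower and 2 were not called. Plvap alone had 9.15 ± 0.153 CPM in CRE libraries and 2.98 ± 1.12 CPM in WT libraries. The part of these shifts in the results below was not tested. Macrophage markers moved with the groups: all 18 were lower in the knockout, and their summed level was 362 to 376 CPM in CRE libraries against 3299 to 3329 CPM in WT libraries. Each of the 18 had at least 23 counts in every WT library, and Aif1 was at 0 in CRE3. In bulk samples fewer cells of a type and less RNA per cell cannot be told apart. The labels do not tie the libraries to separate animals or cultures, so p-values cover the spread among these libraries alone.

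The interferon-stimulated genes did not move as a block. Of 35 genes tested, 16 rose and 12 fell at a Benjamini-Hochberg adjusted p under 0.05 (edgeR quasi-likelihood test, adjusted over all 15028 genes tested), and 7 did not pass the test. Over all genes tested, 30.7% were called higher and 32.1% lower, or 62.7% in either direction, so the share of falls among the members (34.3%) was near that of all genes and the share of rises (45.7%) was above it. The falls included the larger changes. At least 2-fold lower were Oas3, Ifit3b, Ifi27l2a, Ifit3, Rsad2 and Oas2, 6 of 35 genes (17.1%, against 12% of all genes). The gene at least 2-fold higher was Ifi44, 1 of 35 (2.86%, against 7.73% of all genes). CRE libraries lay wholly above WT libraries in 17 members and wholly below in 14, where 32.3% and 34.8% of all genes did so and 67.1% did not overlap in either direction.

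The counts depend on the scaling between libraries. With total counts alone in place of TMM factors, log2 fold changes over all genes shifted by −0.21 at their median. The members then gave 12 rises and 18 falls, where 18.6% and 50.8% of all genes were called higher and lower and 69.3% in either direction. The calls of Irf9, Stat2, Parp9 and Eif2ak2 as higher were lost under that scaling, and Ifit1, Usp18, Ifi35, Gbp7, Dtx3l and Trim25 were called lower. The other 24 called members kept their call, and Cmpk2 was called under neither scaling. Changes near or below that shift are given below with their value under total counts.

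**Figure D1:**
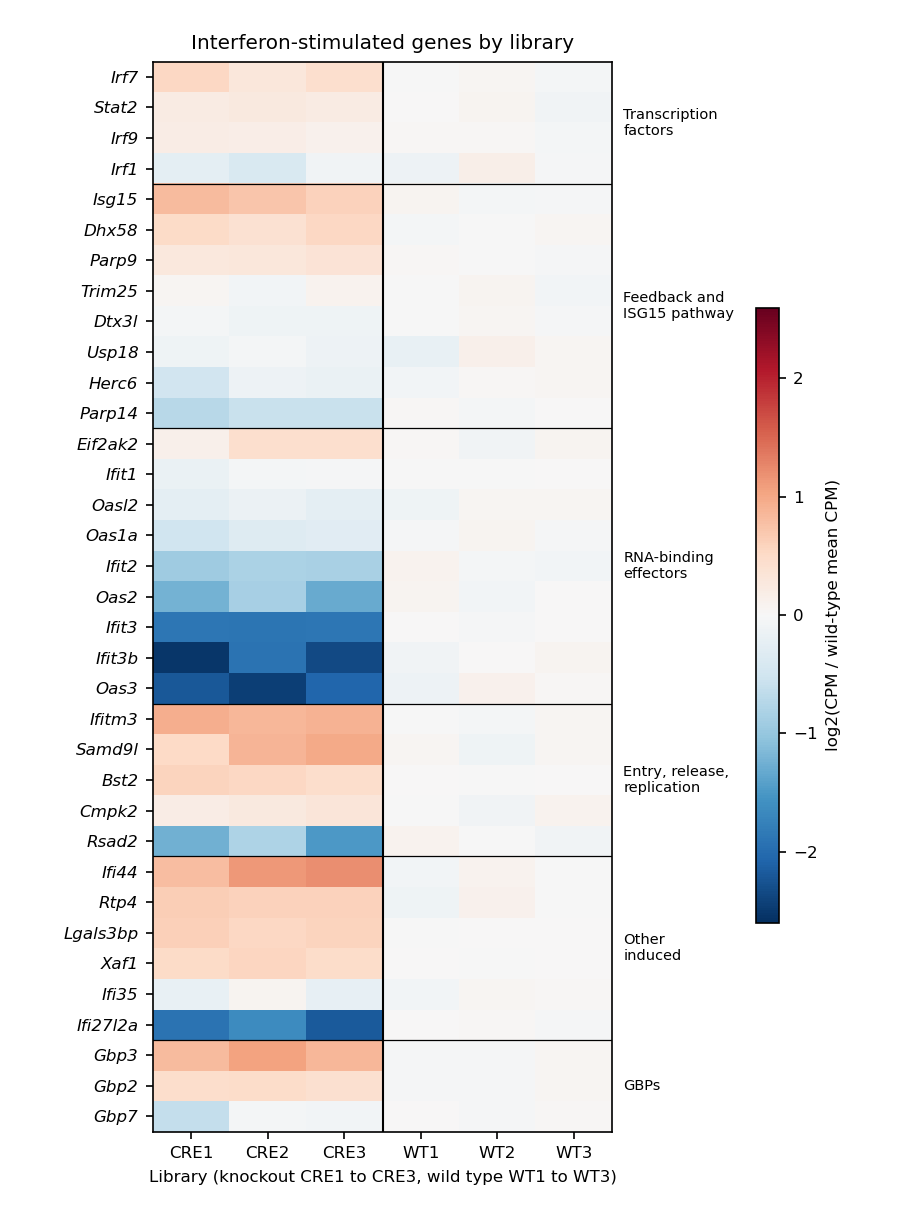
Heat map of log2(CPM over the wild-type mean CPM) for the 35 genes (rows, grouped by role) in the knockout libraries CRE1 to CRE3 and the wild-type libraries WT1 to WT3 (columns). Blue rows, among them Oas3, Ifit3b and Ifit3, are low in every CRE library, red rows such as Ifi44 and Ifitm3 are high in every one, and every role holds genes with fold changes on both sides of 0.

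The antiviral class held the whole range of the set. Its 31 genes gave 14 rises (45.2%, against 30.7% of all genes), 11 falls (35.5%, against 32.1%) and 6 without a call. Their median log2 fold change was 0.022, against −0.021 over all genes tested, and values ran from −2.23 (Oas3) to 1.06 (Ifi44). The 4 genes of the Irf1 and GBP class gave 2 rises, Gbp2 and Gbp3 (50%), and 1 fall, Irf1 (25%), with Gbp7 not passing the test. Their median was 0.11. Values of this smaller class, from −0.24 to 0.92, lie inside the range of the antiviral class. With total counts alone the medians were −0.19 for the antiviral class and −0.095 for the Irf1 and GBP class. The classes were not tested against each other.

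**Figure D2:**
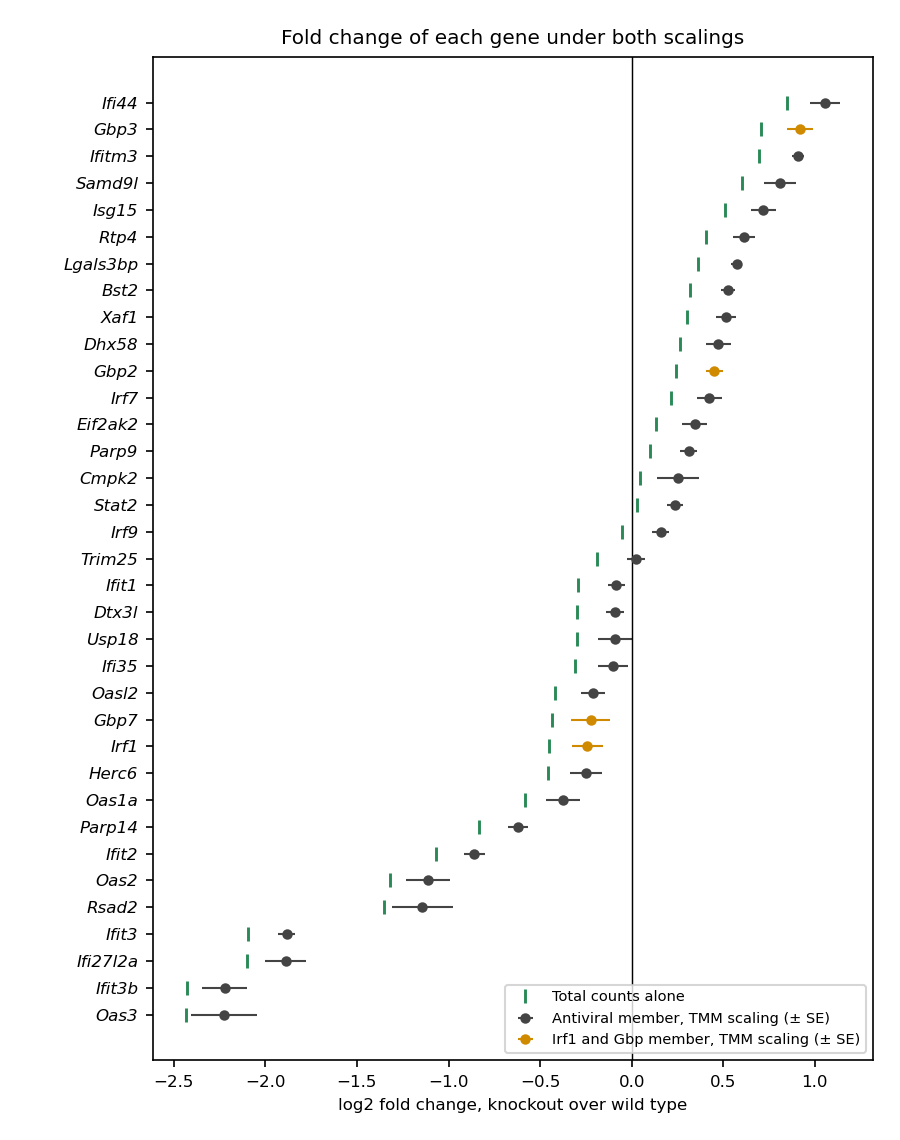
Log2 fold change, knockout over wild type, of each of the 35 genes, with bars of ± SE, in the order of its size. Dark points are antiviral members, orange points the Irf1 and GBP members, and green ticks the value with total counts alone, which lies about 0.21 to the left for every gene and on the other side of 0 for Irf9 and Trim25.

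Among the 4 transcription factors, 3 factors of the type I response were higher (75%, against 30.7% of all genes). Irf1 was lower (25%, against 32.1%), and each of the 4 changed by less than 1.5-fold. Irf7, the factor that drives interferon-alpha genes, had 30.2, 25.8 and 28.3 CPM in CRE1 to CRE3, against 20.9, 21.8 and 20.1 CPM in WT1 to WT3. The groups did not overlap, and Irf7 rose (log2 fold change 0.42, SE 0.068, adjusted p = 5.37e-05, edgeR), by 0.21 with total counts. Stat2, which carries the activating domain of the complex, had 87.9, 90.4 and 87.9 CPM in CRE libraries, against 76.3, 79.0 and 70.9 CPM in WT libraries. Its rise of 0.24 (SE 0.045) shrank to 0.027 with total counts (adjusted p = 0.609, edgeR).

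Irf9, the DNA-binding subunit, had 51.6, 51.0 and 48.6 CPM in CRE1 to CRE3, against 45.9, 46.0 and 43.6 CPM in WT1 to WT3. Every CRE library was above every WT library, a rise of 0.16 (SE 0.047) that took the opposite sign, −0.052, with total counts. Irf1, induced by interferon-gamma and by inflammatory cytokines, had 20.6, 18.7 and 23.2 CPM in CRE libraries, against 22.6, 27.3 and 23.9 CPM in WT libraries. These groups overlap. The fall of Irf1 (−0.24, SE 0.086, adjusted p = 0.0228, edgeR) was not called without WT2 (−0.16, adjusted p = 0.134) or without CRE2 (−0.15, adjusted p = 0.148), and was −0.45 with total counts.

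Genes of the ISG15 pathway and of feedback moved in both directions. Isg15, a ubiquitin-like protein that is attached to other proteins, had 32.9, 30.7 and 28.1 CPM in CRE1 to CRE3, against 19.5, 17.9 and 18.3 CPM in WT1 to WT3. All CRE libraries lay above all WT libraries, a 1.65-fold rise (log2 fold change 0.72, SE 0.068). Usp18, which removes ISG15 and dampens the interferon receptor, had 13.5, 14.0 and 13.3 CPM in CRE libraries, against 12.6, 15.9 and 14.9 CPM in WT libraries. It overlapped between the groups and was not called (−0.091, SE 0.090), though total counts gave a called fall of −0.30. Herc6, the ligase that attaches ISG15 in mice, had 13.5, 17.3 and 16.9 CPM in CRE libraries, against 18.0, 19.3 and 19.6 CPM in WT libraries. CRE1 was the lowest of these, and the fall (−0.25, SE 0.088) was not called without CRE1 (−0.14, adjusted p = 0.117, edgeR), WT2 (−0.24, adjusted p = 0.0607) or WT3 (−0.23, adjusted p = 0.0746). With total counts it was −0.46. Of the 75-base stretches of the Herc6 transcript, 22.4% are shared with the predicted gene Gm45193, so its count is uncertain.

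Trim25, a ubiquitin ligase that acts on the RNA sensor RIG-I, had 75.9, 70.6 and 78.3 CPM in CRE1 to CRE3, against 73.4, 77.8 and 69.9 CPM in WT1 to WT3. The groups overlap, with a log2 fold change of 0.022 (SE 0.051) with TMM factors and −0.19, a called fall, with total counts. Dhx58, a relative of RIG-I that binds RNA without signalling itself, had 22.5, 21.1 and 23.2 CPM in CRE libraries, against 15.5, 16.0 and 16.6 CPM in WT libraries. It rose 1.39-fold (0.47, SE 0.067), and 3.04% of its 75-base stretches lie in the antisense gene Dhx58os, whose reads could not be separated.

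The partners Parp9 and Dtx3l, which work as a complex in ADP-ribosylation and ubiquitination, had fold changes of opposite sign. Parp9 had 55.6, 56.0 and 59.0 CPM in CRE1 to CRE3, against 46.7, 45.6 and 45.1 CPM in WT1 to WT3, a rise of 0.31 (SE 0.045) that total counts reduced to 0.10 (adjusted p = 0.0564, edgeR). Dtx3l had 36.4, 35.0 and 35.0 CPM in CRE libraries, against 37.3, 39.0 and 36.9 CPM in WT libraries (−0.090, SE 0.050, not called, with a called fall of −0.30 under total counts). Transcripts of this pair share sequence: 8.43% of the 75-base stretches of Parp9 occur in Dtx3l transcripts, so some reads could count for either. Parp14, a mono-ADP-ribosyltransferase, had 29.6, 32.8 and 33.02 CPM in CRE libraries, against 50.2, 47.4 and 49.4 CPM in WT libraries. All CRE libraries were below all WT libraries, and Parp14 fell under both scalings (−0.62, SE 0.054, and −0.83 with total counts).

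Effectors that bind or act on RNA included the largest falls. Of the 9 genes placed in this role, 7 fell (77.8%, against 32.1% of all genes), 1 rose (Eif2ak2) and Ifit1 did not pass the test. Dhx58, which also binds RNA and rose, was placed with the feedback genes. With total counts the 9 genes gave 8 falls and no rise, where 50.8% of all genes were called lower and 18.6% higher. The median log2 fold change of the 9 genes with TMM factors was −0.86. Proteins of the IFIT family bind viral RNA and block its translation. Ifit3 had 21.1, 20.8 and 21.2 CPM in CRE1 to CRE3, against 77.8, 76.5 and 78.5 CPM in WT1 to WT3. The libraries of each group lay close together and the groups stood far apart, a 3.69-fold fall (log2 fold change −1.88, SE 0.046, adjusted p = 9.28e-15, edgeR). Ifit3b had 3.40, 5.20 and 3.82 CPM in CRE libraries, against 18.2, 19.8 and 20.6 CPM in WT libraries (−2.22, SE 0.122). Ifit3 and Ifit3b are near-identical copies, and 41.1% of the 75-base stretches of the Ifit3 transcript are found in Ifit3b, so their separate values are uncertain. Summed, they gave 25.2 ± 0.758 CPM in CRE libraries and 97.1 ± 1.67 CPM in WT libraries, 3.86-fold lower in the knockout.

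Ifit1 had 60.0, 65.9 and 66.8 CPM in CRE1 to CRE3, against 68.0, 67.7 and 68.5 CPM in WT1 to WT3. The CRE libraries were all lower, by a margin that was not called (−0.083, SE 0.047, adjusted p = 0.136, edgeR) and that was called with total counts (−0.29). Ifit2 had a fold change between those of Ifit1 and Ifit3, at 25.0 ± 0.828 CPM in CRE libraries and 45.4 ± 2.88 CPM in WT libraries (−0.86, SE 0.058). A ratio of counts within a library does not depend on scaling. The Ifit1 to Ifit3 count ratio, chosen after the values were seen, was 2.84, 3.17 and 3.16 in CRE libraries, against 0.874, 0.885 and 0.873 in WT libraries. Ifit1 thus had more reads than Ifit3 in every CRE library and fewer in every WT library. With Ifit3 and Ifit3b counted together the ratio was 2.55 ± 0.114 in CRE libraries and 0.701 ± 0.00866 in WT libraries. The genes lie within one stretch of chromosome 19 and, as printed above, Ifit1 and Ifit3 hold the same pair of ISRE matches in their windows. Ifit2 has no ISRE match in its windows.

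OAS enzymes make short oligoadenylates that switch on RNase L, and the 4 genes of this family in the set all fell, under both scalings. Over all genes tested, 32.1% were called lower with TMM factors and 50.8% with total counts. Oas3 had 1.203, 1.02 and 1.33 CPM in CRE1 to CRE3, against 5.02, 5.95 and 5.60 CPM in WT1 to WT3. The groups were far apart, a 4.68-fold fall (log2 fold change −2.23, SE 0.179) that rests on the lowest counts of the set, 35 to 40 reads per CRE library. Oas2 fell 2.16-fold, to 4.95 ± 0.816 CPM in CRE libraries against 10.7 ± 0.543 CPM in WT libraries. Oas1a fell 1.30-fold (−0.38, SE 0.092), but 47.6% of its 75-base stretches also occur in Oas1g, so its separate value is uncertain. Oasl2, an OAS-like protein, fell by 0.21 on the log2 scale (SE 0.064, adjusted p = 0.00937, edgeR) with TMM factors and by 0.42 with total counts.

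The rising member of the RNA group was Eif2ak2, which encodes the kinase PKR that stops translation on binding double-stranded RNA. It had 127, 159 and 158 CPM in CRE1 to CRE3, against 119, 109 and 123 CPM in WT1 to WT3. CRE1 stood near the wild type and the other CRE libraries well above it. The rise of 0.34 (SE 0.068) missed the threshold with total counts (0.14, adjusted p = 0.105, edgeR).

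**Figure D3:**
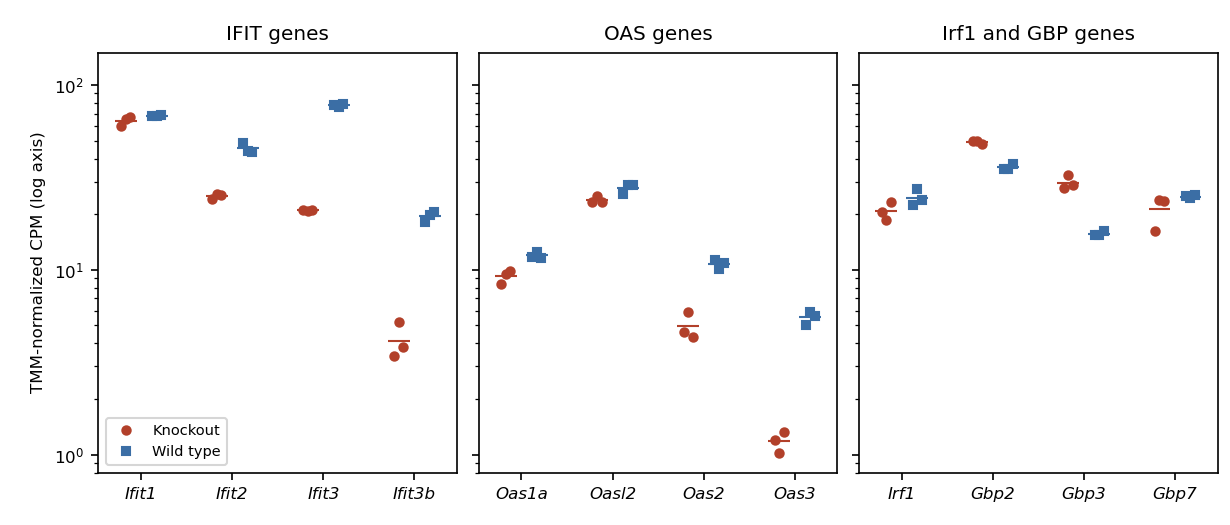
TMM-normalized CPM on a log axis of the IFIT, OAS and Irf1 and GBP genes in each library, with knockout libraries as red circles, wild-type libraries as blue squares and the mean of 3 libraries as a line. Ifit1 lies close together in both groups while Ifit3 lies at 20.8 to 21.2 CPM in CRE libraries and at 76.5 to 78.5 CPM in WT libraries, and Oas2 and Oas3 are set apart more widely than Oas1a and Oasl2.

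Membrane proteins that act on viral entry or release were among the rises. Ifitm3, which blocks fusion of virus with the endosome, had 665, 629 and 639 CPM in CRE1 to CRE3, against 340, 334 and 357 CPM in WT1 to WT3. No library of one group came near the other, and Ifitm3 rose 1.88-fold (log2 fold change 0.91, SE 0.032, adjusted p = 1.03e-12, edgeR). Bst2, or tetherin, which holds budding virus at the surface, rose 1.44-fold, to 99.0 ± 3.65 CPM in CRE libraries against 68.8 ± 0.605 CPM in WT libraries. Samd9l, a cytoplasmic restriction factor, had 175, 225 and 243 CPM in CRE libraries, against 127, 113 and 127 CPM in WT libraries. CRE1 was again the lowest of its group, and the rise of 0.81 (SE 0.086) was 0.94 without it.

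Rsad2, or viperin, an enzyme that makes a chain-terminating nucleotide, had 2.61, 3.56 and 2.19 CPM in CRE1 to CRE3, against 6.59, 6.21 and 5.85 CPM in WT1 to WT3. Rsad2 fell 2.21-fold (−1.14, SE 0.166) and had the widest spread of the set among CRE libraries, a coefficient of variation of 25.1%. Its neighbour on chromosome 12, Cmpk2, a mitochondrial nucleotide kinase transcribed from the opposite strand, had 6.46 ± 0.301 CPM in CRE libraries and 5.42 ± 0.325 CPM in WT libraries (0.25, SE 0.116, adjusted p = 0.0683, edgeR, and 0.045 with total counts). Every CRE library was below every WT library for Rsad2 and above every WT library for Cmpk2, for which the difference was not called.

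Of 6 further induced genes, 4 rose (66.7%, against 30.7% of all genes), Ifi27l2a fell (16.7%, against 32.1%) and Ifi35 did not pass the test. Ifi44 had 39.7, 49.4 and 52.2 CPM in CRE1 to CRE3, against 21.6, 24.0 and 22.5 CPM in WT1 to WT3. The groups were well separated, and its log2 fold change of 1.06 (SE 0.083) was the largest rise among the 35 genes. Rtp4, a chaperone of receptor transport that is strongly induced by interferon, had 42.2, 40.9 and 41.3 CPM in CRE libraries, against 24.9, 29.3 and 27.0 CPM in WT libraries. That is a 1.53-fold rise without overlap, though 12.4% of the 75-base stretches of Rtp4 are shared with the predicted gene Gm45338. Lgals3bp, a secreted glycoprotein, rose 1.49-fold to 623 ± 16.2 CPM in CRE libraries, against 419 ± 4.35 CPM in WT libraries. Xaf1, an antagonist of the apoptosis inhibitor XIAP, rose 1.43-fold. Ifi27l2a, a small hydrophobic protein, had 4.98, 6.05 and 4.16 CPM in CRE libraries, against 19.1, 19.2 and 18.4 CPM in WT libraries, a 3.71-fold fall. Ifi35 had 15.7, 18.8 and 15.5 CPM in CRE libraries, against 17.1, 18.5 and 18.2 CPM in WT libraries, which overlap (−0.10, SE 0.082, with a called fall of −0.31 under total counts).

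GBP genes encode large GTPases that coat intracellular microbes and their vacuoles. Gbp3 had 27.6, 32.4 and 28.6 CPM in CRE1 to CRE3, against 15.3, 15.4 and 16.3 CPM in WT1 to WT3. The groups did not overlap, and Gbp3 rose 1.89-fold (log2 fold change 0.92, SE 0.071). Gbp2 had 49.7, 50.0 and 47.8 CPM in CRE libraries, against 35.3, 35.2 and 37.3 CPM in WT libraries. Again without overlap, Gbp2 rose 1.37-fold (0.45, SE 0.048), a rise that held with total counts (0.24, adjusted p = 0.000402, edgeR). Gbp7 had 16.2, 23.9 and 23.6 CPM in CRE libraries, against 25.1, 24.3 and 25.3 CPM in WT libraries. The low value of CRE1 decided its size: the difference on the log2 scale was −0.22 (SE 0.106, adjusted p = 0.0787, edgeR) with all libraries and −0.062 (adjusted p = 0.431) without CRE1. Without CRE2 (−0.31, adjusted p = 0.0251) or CRE3 (−0.29, adjusted p = 0.0281) it passed the threshold, as it did with total counts (−0.43, adjusted p = 0.00282). Of the 75-base stretches of the Gbp7 transcript, 11.4% are shared with other genes, 10.2% with the predicted gene Gm43802, so its count is uncertain.

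Within libraries, the Gbp3 to Gbp7 count ratio was 1.71, 1.36 and 1.21 in CRE1 to CRE3, against 0.612, 0.633 and 0.646 in WT1 to WT3. The Gbp2 to Irf1 count ratio was 2.41, 2.67 and 2.06 in CRE libraries, against 1.57, 1.29 and 1.56 in WT libraries. Both ratios, chosen with the values known, were higher in every CRE library than in any WT library. Gbp2, Gbp3 and Gbp7 lie together on chromosome 3, and each has an ISRE match in its window.

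Levels between genes were compared per length, in the deposited FPKM, which carries no TMM factor. Ifitm3 was the most abundant member, at a mean of 924 FPKM in CRE libraries and 570 FPKM in WT libraries. Lgals3bp (252 FPKM in CRE libraries, 196 FPKM in WT libraries) and Bst2 (114 FPKM in CRE libraries, 91.5 FPKM in WT libraries) came next, and these 3 kept their order in every library. Below them the order changed. Ifit3 was next in the WT libraries at 31.1 FPKM but stood at 7.30 FPKM in the CRE libraries, where Isg15 at 37.6 FPKM and Samd9l at 36.4 FPKM came after Bst2 and overlapped each other. Among WT libraries Ifit1 (27.7 FPKM) and Isg15 (26.4 FPKM) overlapped, and Samd9l followed at 24.0 FPKM. Members with a mean above 10 FPKM numbered 16 by the CRE libraries and 17 by the WT libraries. Oas3 was the lowest, at 0.224 FPKM in CRE libraries and 1.21 FPKM in WT libraries.

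**Figure D4:**
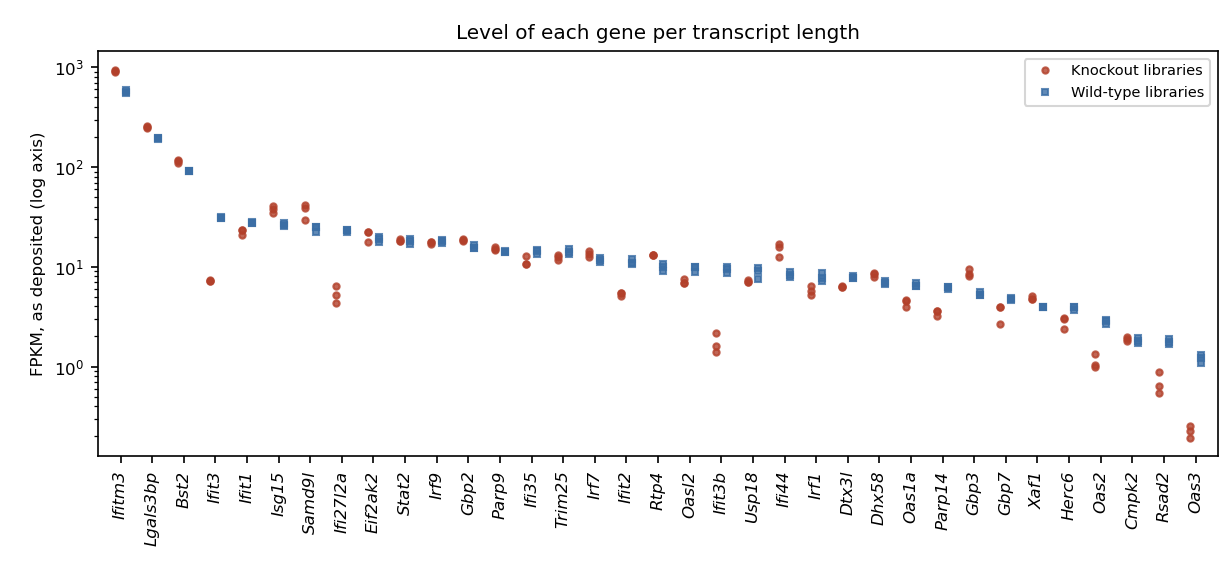
Deposited FPKM on a log axis of the 35 genes in each knockout (red circles) and wild-type (blue squares) library, in the order of the wild-type mean. Ifitm3, Lgals3bp and Bst2 lead in both groups, and the knockout values of Ifit3, Ifi27l2a, Ifit3b and Oas3 lie far below the wild-type ones.

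Within each group the members varied little. The median coefficient of variation of a member was 5.77% over the CRE libraries and 4.30% over the WT libraries. CRE1 had the lowest knockout value in 14 members, CRE2 in 10 and CRE3 in 11.

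Motif matches were found among rises and falls alike. An ISRE match was present for 7 of the 13 genes with a window that rose, 5 of the 9 that fell and 2 of the 6 without a call. The GAS pattern was present for 3 of the 13 that rose, 3 of the 9 that fell and 2 of the 6 without a call. Irf1, which has a GAS match and no ISRE match, fell, and of the 3 GBP genes Gbp7, which was not called, has a GAS match in its window.

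Upstream in the pathway, interferon transcripts that could be counted had almost no reads. Of 21 interferon genes listed, 2 had a row: Ifna11 had 1 read in CRE2 and none in the other libraries, and Ifnz had 1 read in CRE2 against 4 in WT1 and 1 in WT3. The other 19 were not analysed here. Receptor chains were present in every library. Ifnar2 rose 1.45-fold, to 116 ± 1.75 CPM in CRE libraries against 80.4 ± 1.71 CPM in WT libraries. Ifnar1 (0.17, SE 0.052) and Ifngr1 (0.22, SE 0.042) were called higher with TMM factors but not with total counts (−0.043 for Ifnar1 and 0.012 for Ifngr1). Ifngr2 was not called (0.064, SE 0.045) and was called lower with total counts (−0.15). Il10rb, which the interferon-lambda receptor shares with that of IL-10, fell 1.58-fold. Its partner Ifnlr1 had 1.22 ± 0.146 CPM in CRE libraries and 1.81 ± 0.269 CPM in WT libraries (adjusted p = 0.0593, edgeR), and was called lower with total counts (−0.78, adjusted p = 0.0122).

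Of 15 receptor and signalling genes, 7 rose (46.7%, against 30.7% of all genes), 5 fell (33.3%, against 32.1%) and 3 did not pass the test. With total counts 4 rose and 7 fell, where 18.6% of all genes were called higher and 50.8% lower. The kinase Jak1 rose 1.52-fold. The phosphatase Ptpn2, which removes phosphate from JAK and STAT proteins, rose 2.88-fold, to 114 ± 9.96 CPM in CRE libraries against 39.6 ± 1.17 CPM in WT libraries. Ptpn11, another phosphatase, rose 1.48-fold. Ptpn6, a phosphatase of blood cells, fell 20.4-fold, more than any other gene of these 15.

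Of 49 further type I induced genes tested, 10 rose (20.4%, against 30.7% of all genes) and 27 fell (55.1%, against 32.1%). With total counts 9 rose and 36 fell, where 18.6% of all genes were called higher and 50.8% lower. The log2 fold changes of the 49 genes with TMM factors had a median of −0.36. Genes of this list that changed most among those with a mean log2 CPM of at least 1 were Epsti1 (−4.48), Ifi209 (−2.33) and Sp100 (−1.41), which fell, and Tdrd7 (1.08), the RNA exonuclease Isg20 (1.04) and Ifitm2 (0.94), a close relative of Ifitm3, which rose. Of 26 genes of the interferon-gamma type, 3 rose (11.5%) and 15 fell (57.7%), with a median of −0.47. With total counts 3 rose and 20 fell, beside the same 18.6% and 50.8% of all genes. Gbp9 (−1.19), Ifi47 (−1.12) and the immunoproteasome subunit Psmb9 (−0.84) fell, while Gbp6 (0.78), the peptide-loading gene Tapbp (0.66) and B2m (0.37, and 0.16 with total counts), the light chain of MHC class I, rose. Guanylate-binding genes outside the set thus went both ways as well. The difference between these lists and the members was not tested.

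Among 13 sensors of nucleic acids, 4 rose (30.8%) and 5 fell (38.5%), shares near the 30.7% and 32.1% of all genes. With total counts 1 rose and 8 fell, where 18.6% of all genes were called higher and 50.8% lower. Zbp1 (2.12) rose under both scalings. Sting1 (0.30) and Ikbke (0.19) were called higher with TMM factors but not with total counts (0.087 for Sting1 and −0.023 for Ikbke). Aim2 (−4.67), Tlr7 (−2.89) and Cgas (−0.93) fell. Of the other IRF factors, Irf8 fell 32.5-fold, to 0.417 ± 0.0799 CPM in CRE libraries against 13.5 ± 0.427 CPM in WT libraries, and Irf5 fell 7.85-fold. Irf8, Irf5, Tlr7, Aim2 and Ptpn6 are known for expression in macrophages and other blood cells. Macrophage markers were lower in the same libraries, with log2 fold changes from −6.32 (Cx3cr1) to −1.39 (Cd14), and their summed level was 369 ± 7.18 CPM in CRE libraries and 3309 ± 17.1 CPM in WT libraries, 8.97-fold lower in the knockout. Their part in the falls of Ifit3, Ifit3b, Oas2, Oas3, Ifi27l2a and Rsad2, and of the lists above, was not tested. Of 6 dendritic cell markers, Itgax, which macrophages also express, was the one with more than 6 reads in a library, at 0.153 ± 0.106 CPM in CRE libraries and 2.62 ± 0.225 CPM in WT libraries. Neutrophil and lymphocyte markers summed to 6.19 ± 0.322 CPM in CRE libraries and 0.790 ± 0.301 CPM in WT libraries, and their part in the rises was not tested.

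**Figure D5:**
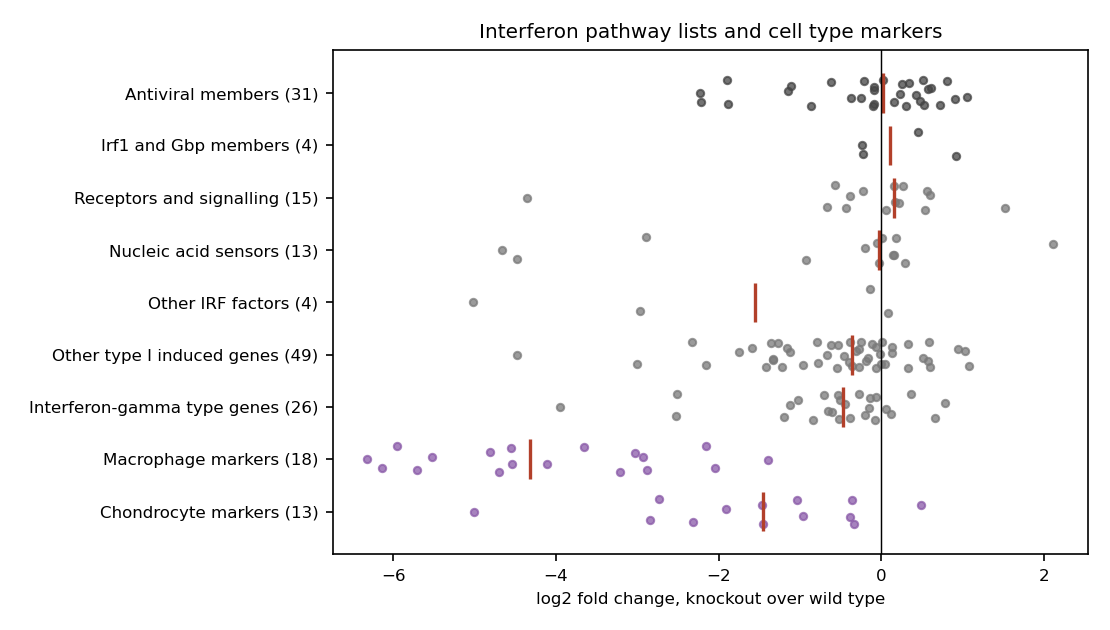
Log2 fold change, knockout over wild type, of each tested gene in the member classes, the other interferon lists and the marker lists of macrophages and chondrocytes, with the number tested in brackets and the median as a red line. Antiviral members lie between −2.23 and 1.06 around a median of 0.022, while all macrophage markers lie between −6.32 and −1.39.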

How the data were processed

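RNA of mouse chondrocytes was, per the labels' protocols, converted to libraries using the VAHTS Universal V6 kit. Programs in the submitters' processing notes are fastp, HISAT2 and HTSeq, and the build is GRCm39; annotation and use of strand are not stated in the sources used here, so overlapping and antisense genes have uncertain counts. The authors deposited whole-number read counts and FPKM values for 23867 genes. For the 13375 genes with at least 10 counts in all 6 libraries, FPKM equals count over column total and 1 length per gene (largest relative spread 3.76e-10). Wild-type columns matched sample titles, and the CRE columns showed their group only. Replicates differed beyond sampling noise (chi-square 3.12 to 7.65 per degree of freedom), so none was taken as a second deposit of another.

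Counts were analysed in R 4.3.3 using edgeR 4.0.16 (two-sided quasi-likelihood test, group as the only term, TMM factors, filterByExpr at its minimum count of 10), keeping 15028 genes; SE is the log2 fold change over the root of F. The procedure was tested on simulated data. Alternatives used DESeq2 1.42.0, limma 3.58.1, other scalings and filters, and each library left out. Members and lists were chosen with earlier results of these data known. Per-library values are given for the transcription factors, Ifit3 and Ifit3b, up to 2 largest rises and falls per role with a mean log2 CPM of at least 1, and members whose call differs under total counts. From the other lists, receptor chains, ligands with a read and up to 3 largest rises and falls are named; 1 further result of that rule is not reported here. Shared stretches came from GENCODE M21 transcripts and promoters from RefSeq, both of the assembly before GRCm39; the count table carries no coordinates.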

Additional observations from a re-analysis of the deposited data

How the results depend on the processing

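Over 18 alternative settings, 21 of the 35 members kept their direction and their side of the threshold, and 14 did not in at least 1; Oas3 gave no value in the FPKM fits above a mean of 1 FPKM. The medians of both classes lie near 0 and changed sign with the scaling. Total counts alone shifted the median over all genes by −0.21, and upper-quartile factors shifted it by −0.091. Which scaling is nearer the true levels was not tested. For the antiviral members the median log2 fold change was 0.022; it was −0.069 with upper-quartile factors, −0.19 with total counts alone, −0.11 with limma on log2(FPKM + 1) above a mean of 1 FPKM, −0.12 with a pseudocount of 0.1 there, −0.17 on log2(FPKM + 1) unfiltered, and −0.015 (without WT3) to 0.079 (without CRE2) with 1 library left out. For the Irf1 and GBP members it was 0.11; it was 0.023 with upper-quartile factors, −0.095 with total counts, −0.068 and −0.10 on the filtered log2(FPKM + 1) and log2(FPKM + 0.1), −0.068 on the unfiltered log2(FPKM + 1), and 0.096 to 0.19 (without CRE1) with 1 library left out. The number of Irf1 and GBP members called lower, 1 as reported, was 2 with upper-quartile factors, total counts, no filter on low counts and both filtered FPKM fits, 0 against a 1.2-fold change, and 0 (without WT2) to 2 (without CRE3) with 1 library left out.

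Irf9 took the opposite sign with total counts (−0.052) and on log2(FPKM + 1) (−0.049), log2(FPKM + 0.1) (−0.052) and unfiltered log2(FPKM + 1) (−0.049). Trim25 did so with upper-quartile factors (−0.069), total counts (−0.19), on log2(FPKM + 1) (−0.17, and −0.17 unfiltered) and log2(FPKM + 0.1) (−0.18), and ranged from −0.015 to 0.079 with 1 library left out. These FPKM fits and total counts use the column totals without TMM factors. Against a 1.2-fold change 12 members rose and 8 fell. With a replicate block on the column numbers 16 rose and 13 fell, Gbp7 being added (adjusted p = 0.0458, edgeR), and the Irf1 and GBP members called lower were 2. No sign of pairing by column number was seen. Same-numbered columns correlated in their deviations at −0.086, 0.055 and −0.095, and differently numbered ones at −0.075 to 0.149. This check cannot exclude a pairing, because the CRE columns show their group only. Oas3, at 35 to 40 reads per knockout library, has the lowest counts and the largest SE of the members (0.179).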
